A study of Mus musculus with 10 samples.

Results

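CC chemokines are small secreted proteins that direct white blood cells to sites of injury, and the 10 genes described here are 8 of these ligands and 2 of their receptors. They were taken by symbol (Ccl2, Ccl3, Ccl4, Ccl5, Ccl6, Ccl7, Ccl9, Ccl12, Ccr1 and Ccr2), with 1 probe set for each, and all 10 were found among the 18193 genes of the array. RNA came from the operated-side hemisphere of male mice at 24 h, and 4 groups were compared: Hsp72Tg MCAO (n = 3), Hsp72Tg sham (n = 2), WT MCAO (n = 3) and WT sham (n = 2). MCAO is occlusion of the middle cerebral artery, a model of stroke, and sham mice are the controls within each genotype. Hsp72Tg mice overexpress Hsp72, the inducible heat shock protein, and WT mice are wild type. No source used here states the strain, the age, the promoter that drives the transgene, or whether an array held RNA of 1 mouse or of a pool, so p-values measure the spread between these samples only. Values are log2 RMA expression values, a scale on which 1 unit is a 2-fold change, and levels are compared between arrays for the same gene and not between genes.

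In this family the ligand binds a receptor with a G protein on the surface of the leukocyte and sets its direction of movement. In the mouse, Ccl2, Ccl7 and Ccl12 act through Ccr2, the receptor that brings inflammatory monocytes out of the bone marrow and into tissue. Ccl3, Ccl5 and Ccl9 act through Ccr1, a receptor of monocytes, macrophages and neutrophils. After stroke, resident microglia, astrocytes, vessel cells and incoming leukocytes are all known as sources of these ligands.

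Of the 10 arrays, 2 stood apart from their groups and touch the results below. On the first principal component of all genes, which held 50.3% of the variance, Hsp72Tg MCAO 1 lay at -12.9, between the other 5 MCAO arrays (11.7 to 32.3) and the sham arrays (-23.7 to -20.7). WT sham 1 carried a cerebellar signal, with Gabra6, a receptor subunit of cerebellar granule neurons, at 9.46, while the remaining arrays read 4.15 to 4.49. Markers of brain were high, since 5 neuronal markers averaged 12.66 to 13 and 7 astrocyte markers 11.56 to 11.92 over the arrays. In whole tissue, fewer cells of a type and less RNA per cell cannot be told apart.

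Of the 10 genes, Ccl12 and Ccl9 rose after MCAO in the comparison over both genotypes. Over both genotypes Ccl12 rose by 3.17 on the log2 scale (SE 0.33, 8.99-fold, limma adjusted p = 0.00542) and Ccl9 by 2.89 (SE 0.54, 7.4-fold, adjusted p = 0.0396). The other 8 genes had positive differences, between 0.12 for Ccr2 and 2.66 for Ccl3, and did not pass. The 2 genes that rose are 2 of 10, where 1.06% of all genes passed as higher. The median difference was 1.29 over the 10 genes and -0.03 over all genes. On the probe sets used, 9 of the 10, all but Ccr2, had an unadjusted p under 0.05. At that p 8.3% of all genes were higher. The count depends on the probe set, since another of Ccr1 had an unadjusted limma p of 0.0631 and another of Ccr2 had 0.0127.

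**Figure D1:**
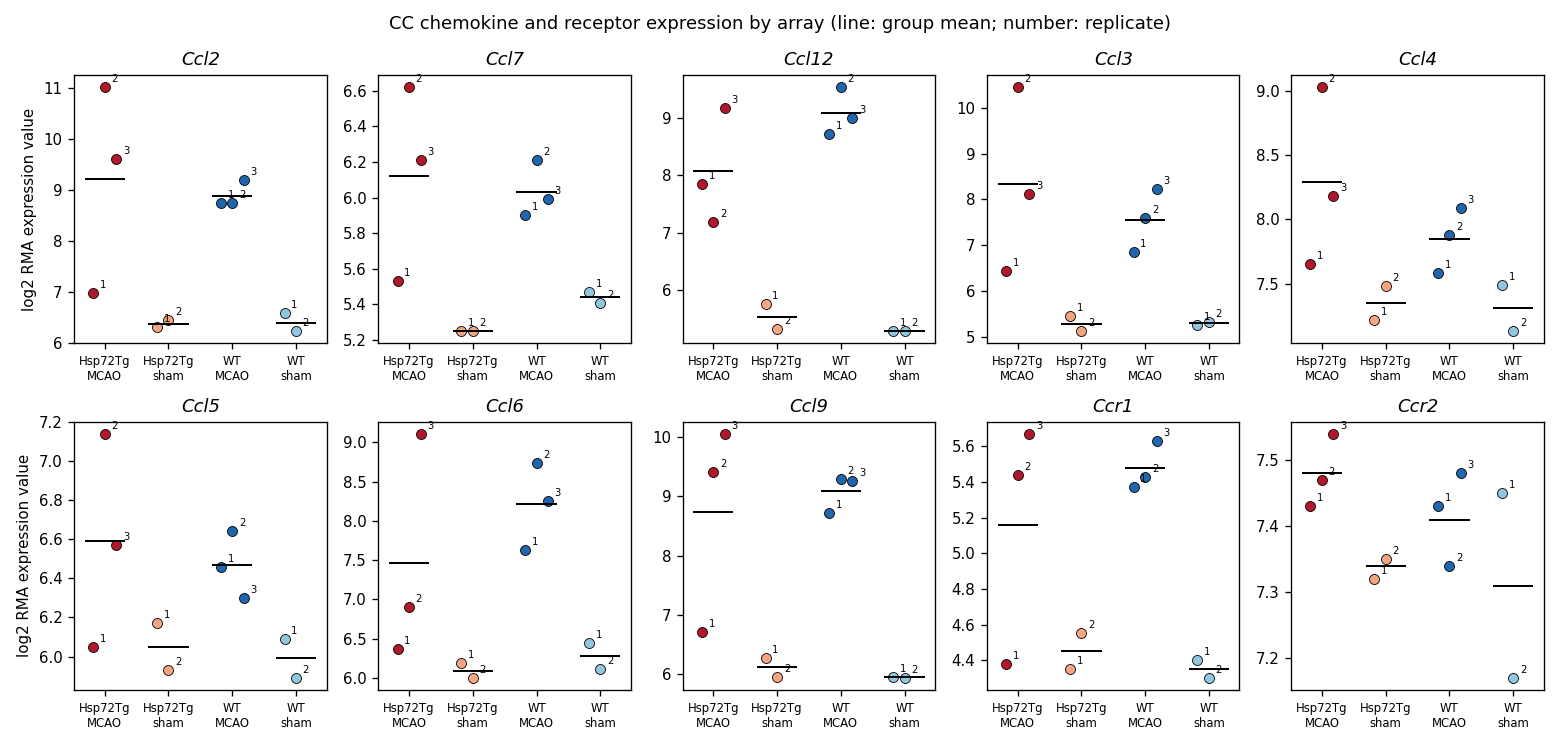
Log2 RMA expression value (vertical axis, a separate range for each gene) of the 10 genes by group, with a point for each array, its replicate number and a line at the group mean. In 6 genes, Ccl2, Ccl7, Ccl12, Ccl3, Ccl4 and Ccl9, all 6 MCAO arrays lie above all 4 sham arrays, while Hsp72Tg MCAO 1 is the lowest MCAO array for 7 genes.

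In 6 genes, Ccl2, Ccl7, Ccl12, Ccl3, Ccl4 and Ccl9, every MCAO array lay above every sham array, a pattern held by 3.19% of all genes. Within WT this held for 9 of the 10 genes, all but Ccr2, against 16.4% of all genes. Within Hsp72Tg it held for 8 genes, all but Ccl5 and Ccr1, against 9.05% of all genes.

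The ligands of Ccr2 are given first. Ccl12, also called monocyte chemoattractant protein 5, read 7.86, 7.19 and 9.18 in Hsp72Tg MCAO and 5.76 and 5.32 in Hsp72Tg sham. In WT it read 8.72, 9.54 and 9.0 after MCAO, against 5.29 and 5.3 after sham surgery. The groups were far apart in both genotypes, and the lowest MCAO array for this gene was Hsp72Tg MCAO 2. WT sham 1, WT sham 2 and Hsp72Tg sham 2 lay just above the lower quartiles of their arrays (5.18, 5.14 and 5.14). The size of the folds is therefore uncertain. In WT, Ccl12 rose by 3.79 (SE 0.47, 13.9-fold, adjusted p = 0.0336), while in Hsp72Tg its difference of 2.54 (SE 0.47, 5.82-fold, adjusted p = 0.294) did not pass. It was the only one of the 10 genes to pass in WT, where 0.0495% of all genes passed as higher. The call over both genotypes was kept in all 21 alternatives. Where at least 2 arrays were left in each group, the limma adjusted p ran from 0.000431 to 0.0445. Some alternatives could not change this call, since the fit on only the arrays compared used all 10 arrays here. A threshold of 0.01 and a minimum of 2-fold were read on the reported fit. The call in WT was lost in 10 of 21 (adjusted p from 0.000242 to 0.319), among them the fits without WT sham 1, WT sham 2, Hsp72Tg sham 1, Hsp72Tg sham 2, WT MCAO 1, WT MCAO 2 or WT MCAO 3 (adjusted p = 0.319, 0.205, 0.126, 0.126, 0.144, 0.18 and 0.249).

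Ccl2, monocyte chemoattractant protein 1 and the best known attractant of monocytes, read 6.98, 11.01 and 9.61 in Hsp72Tg MCAO and 6.32 and 6.45 in Hsp72Tg sham. In WT it read 8.74, 8.74 and 9.18 after MCAO and 6.58 and 6.23 after sham surgery. The 3 WT MCAO arrays lay within 0.44 of each other, whereas the 3 Hsp72Tg MCAO arrays spanned 4.04, so that one was close to sham and another was the highest of all. The differences were 2.82 in Hsp72Tg (SE 0.86, adjusted p = 0.34), 2.48 in WT (SE 0.86, adjusted p = 0.342) and 2.65 over both genotypes (SE 0.61, 6.28-fold, adjusted p = 0.0667). The fit shares the spread of a gene between all groups, so the SE in WT also carries the spread of the Hsp72Tg MCAO arrays. Without Hsp72Tg MCAO 1 the same WT difference of 2.48 had an SE of 0.33 (limma adjusted p = 0.00425).

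Ccl7, monocyte chemoattractant protein 3, showed a smaller difference in the same arrays. It read 5.53, 6.62 and 6.21 in Hsp72Tg MCAO and 5.25 and 5.25 in Hsp72Tg sham, against 5.9, 6.21 and 5.99 in WT MCAO and 5.47 and 5.41 in WT sham. MCAO and sham arrays did not overlap, and the difference over both genotypes was 0.73 (SE 0.18, 1.66-fold, adjusted p = 0.0736). The Hsp72Tg sham arrays lay just above the lower quartiles of their arrays (5.17 and 5.14), so the size of this fold is uncertain.

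Ccl3, Ccl4 and Ccl5 are given next, and of these Ccl3 had the largest difference. Ccl3, macrophage inflammatory protein 1-alpha, read 6.45, 10.45 and 8.13 in Hsp72Tg MCAO and 5.46 and 5.13 in Hsp72Tg sham. In WT it read 6.86, 7.6 and 8.23 after MCAO and 5.26 and 5.33 after sham surgery. All MCAO arrays were higher than all sham arrays, and Hsp72Tg MCAO 2 stood 35.7-fold over the mean of its sham group. Hsp72Tg sham 2 lay below the lower quartile of its array for Ccl3, so the size of this fold is uncertain. The difference was 3.05 in Hsp72Tg (SE 0.88, adjusted p = 0.328), 2.26 in WT (SE 0.88, adjusted p = 0.41) and 2.66 over both genotypes (SE 0.63, 6.31-fold, adjusted p = 0.0713). Without Hsp72Tg MCAO 2 the difference over both genotypes was smaller, 2.13, and passed (adjusted p = 0.0353).

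Ccl4, macrophage inflammatory protein 1-beta, lies next to Ccl3 on chromosome 11. It read 7.65, 9.03 and 8.18 in Hsp72Tg MCAO and 7.22 and 7.48 in Hsp72Tg sham, against 7.58, 7.88 and 8.09 in WT MCAO and 7.49 and 7.13 in WT sham. The 3 Hsp72Tg MCAO arrays had the same order as for Ccl3, and MCAO and sham arrays did not overlap, with a difference over both genotypes of 0.74 (SE 0.23, 1.67-fold, adjusted p = 0.132). Ccl5, also called RANTES and made mainly by T cells, NK cells and activated glia, read 6.05, 7.14 and 6.57 in Hsp72Tg MCAO and 6.17 and 5.93 in Hsp72Tg sham. In WT it read 6.46, 6.64 and 6.3 after MCAO and 6.09 and 5.89 after sham surgery. The groups overlapped in Hsp72Tg, through Hsp72Tg MCAO 1, and not in WT, and the difference over both genotypes was 0.51 (SE 0.18, adjusted p = 0.173). The 8 measured markers of T and NK cells averaged 5.67 to 5.81 in Hsp72Tg MCAO, 5.73 to 5.78 in Hsp72Tg sham, 5.62 to 5.76 in WT MCAO and 5.76 to 5.81 in WT sham, and 0 of them passed in limma (7 of 8 had a lower value after MCAO over both genotypes, with a median of -0.05).

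Ccl9 and Ccl6 are neighbours in the same cluster and are made by myeloid cells of rodents. Ccl9, macrophage inflammatory protein 1-gamma, read 6.7, 9.42 and 10.06 in Hsp72Tg MCAO and 6.27 and 5.95 in Hsp72Tg sham. In WT it read 8.72, 9.29 and 9.27 after MCAO and 5.94 and 5.93 after sham surgery. The 5 MCAO arrays other than Hsp72Tg MCAO 1 were 6.9 to 15.5-fold over the mean of their sham group, and that array was 1.5-fold over it. The differences of 2.62 in Hsp72Tg (SE 0.76, adjusted p = 0.328) and 3.16 in WT (SE 0.76, 8.91-fold, adjusted p = 0.184) did not pass by themselves. The call over both genotypes was lost in 13 of 22 alternatives (adjusted p from 3.18e-06 to 0.154), among them 8 of the 10 fits that left out 1 array. It was kept without Hsp72Tg MCAO 1 (adjusted p = 3.18e-06) and without Hsp72Tg MCAO 3 (0.0457). It was lost without WT sham 1 (0.154), WT sham 2 (0.153), Hsp72Tg sham 1 (0.146), Hsp72Tg sham 2 (0.0734), WT MCAO 1 (0.0969), WT MCAO 2 (0.0975), WT MCAO 3 (0.12) or Hsp72Tg MCAO 2 (0.0542). The other probe set of Ccl9 gave 2.26 (SE 0.48, adjusted p = 0.0694 over all probe sets).

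Ccl6, a chemokine of macrophages known in the mouse as C10, read 6.37, 6.9 and 9.11 in Hsp72Tg MCAO and 6.19 and 6.0 in Hsp72Tg sham. In WT it read 7.63, 8.74 and 8.26 after MCAO and 6.45 and 6.11 after sham surgery. On the probe set used, Hsp72Tg MCAO 3 was the highest array and the other 2 of its group lay below all WT MCAO arrays. The difference was 1.37 in Hsp72Tg (SE 0.65, adjusted p = 0.431), 1.93 in WT (SE 0.65, adjusted p = 0.335) and 1.65 over both genotypes (SE 0.46, 3.14-fold, adjusted p = 0.101). Its other probe set gave 0.80 over both genotypes, so the size depends on the probe set. On that probe set Hsp72Tg MCAO 2, at 5.99, lay above WT MCAO 1 (5.51) and WT MCAO 3 (5.90).

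The 250 bases before the start of Ccl12, Ccl9 and Ccl6 are shown because Ccl12 and Ccl9 rose and Ccl6 is the neighbour of Ccl9. They are RefSeq sequences of the build GRCm38.p6, which held 6 of the 10 genes (the first listed start of a gene was used), and run 5′ to 3′ on the strand of the gene. Capitals mark matches, on either strand, to the letters TATAAA of a TATA box, TGANTCA of an AP-1 site and CACTTCC of an ETS site.
Ccl12, chr11:82101595-82101844, plus strand: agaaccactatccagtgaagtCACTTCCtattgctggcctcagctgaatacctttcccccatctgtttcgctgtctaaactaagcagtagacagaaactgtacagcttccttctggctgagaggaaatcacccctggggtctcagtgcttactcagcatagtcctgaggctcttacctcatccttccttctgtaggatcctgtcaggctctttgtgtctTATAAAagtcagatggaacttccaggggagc
Ccl9, chr11:83578637-83578886, minus strand: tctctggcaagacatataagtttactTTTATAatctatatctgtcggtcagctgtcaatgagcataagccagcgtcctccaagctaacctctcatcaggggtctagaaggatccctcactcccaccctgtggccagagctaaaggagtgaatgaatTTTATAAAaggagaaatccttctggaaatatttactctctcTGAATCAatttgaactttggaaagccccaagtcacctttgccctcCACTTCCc
Ccl6, chr11:83593088-83593337, minus strand: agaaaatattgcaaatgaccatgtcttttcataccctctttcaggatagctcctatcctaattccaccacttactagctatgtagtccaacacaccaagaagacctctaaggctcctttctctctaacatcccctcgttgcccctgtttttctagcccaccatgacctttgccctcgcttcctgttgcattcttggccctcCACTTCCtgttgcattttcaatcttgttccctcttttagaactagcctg

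Ccl12 held the TATA letters from 31 to 26 bases before its start, and Ccl9 held them 3 times further upstream, where 2 of the matches overlap. These letters stood in 13% of the 27025 promoters searched over the same length. The ETS letters stood in Ccl12, Ccl9 and Ccl6, against 8.64% of promoters, and the AP-1 letters in Ccl9, against 6.87%. The ETS letters were chosen after these sequences had been read, so the count of 3 of 6 is a description only. An NF-kappaB-like motif (1.17% of promoters) and the STAT-like letters TTCNNNGAA (7.18%) stood in 0 of the 6 windows. The windows of Ccl6 and Ccl9, taken with the 50 bases after the start, aligned over 74 columns with 59 identical bases (79.7%). The ETS letters lie 8 to 2 bases before the start of Ccl9, 49 to 43 bases before that of Ccl6 and 229 to 223 bases before that of Ccl12, and the AP-1 letters 53 to 47 bases before that of Ccl9.

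Both receptors had differences that did not pass. Ccr1 binds several of the ligands above and is carried by monocytes, macrophages and neutrophils. It read 4.38, 5.44 and 5.67 in Hsp72Tg MCAO and 4.35 and 4.55 in Hsp72Tg sham, against 5.37, 5.43 and 5.63 in WT MCAO and 4.4 and 4.3 in WT sham. Every WT MCAO array was higher than every sham array, while Hsp72Tg MCAO 1 lay among the sham arrays. The difference was 0.71 in Hsp72Tg (SE 0.30, adjusted p = 0.404), 1.13 in WT (SE 0.30, adjusted p = 0.233) and 0.92 over both genotypes (SE 0.22, 1.89-fold, adjusted p = 0.0695). All 4 sham arrays and Hsp72Tg MCAO 1 were below the lower quartile of all probe sets (5.14 to 5.21), and the other probe set of Ccr1, below it on all 10 arrays, gave 0.18, so the size of this difference is uncertain.

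Ccr2, the monocyte receptor for Ccl2, Ccl7 and Ccl12, had the smallest difference of the 10 genes over both genotypes. It read 7.43, 7.47 and 7.54 in Hsp72Tg MCAO and 7.32 and 7.35 in Hsp72Tg sham, against 7.43, 7.34 and 7.48 in WT MCAO and 7.45 and 7.17 in WT sham. The WT groups overlapped, and the difference over both genotypes was 0.12 (SE 0.07, 95% interval -0.04 to 0.28, adjusted p = 0.409). Ccr2 has 4 probe sets, and the 3 others read below the lower quartile on 9 or 10 of the 10 arrays, with differences over both genotypes of 0.13, 0.10 and 0.30 (adjusted p = 0.637, 0.61 and 0.163 over all probe sets). The probe set reported here was above the lower quartile on all 10 arrays.

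**Figure D2:**
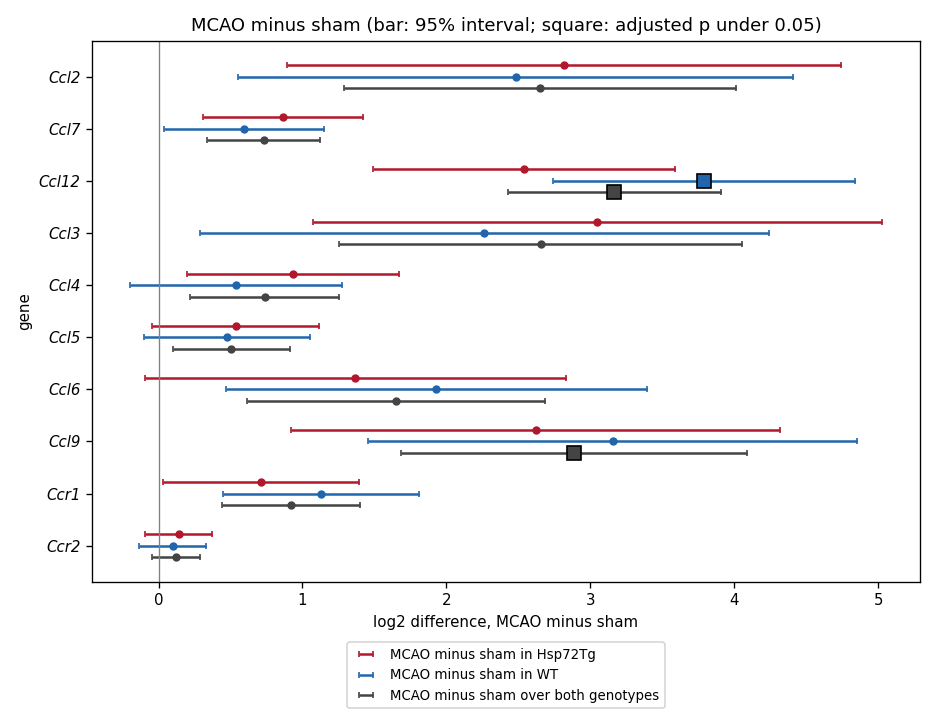
Log2 difference of MCAO minus sham (horizontal axis) for each gene in Hsp72Tg, in WT and over both genotypes, with the 95% interval of the limma fit as a bar and a square where the adjusted p was under 0.05. Squares stand at Ccl12 in WT (3.79) and over both genotypes (3.17) and at Ccl9 over both genotypes (2.89), and intervals in Hsp72Tg and WT overlap for every gene.

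In Hsp72Tg by itself 0 of the 10 genes passed in limma, where 0.0165% of all genes passed as higher, although 7 had an unadjusted p under 0.05 (4.73% of all genes were higher at that p). In WT 7 also had an unadjusted p under 0.05, against 5.71% of all genes. The 7 in Hsp72Tg were Ccl2, Ccl7, Ccl12, Ccl3, Ccl4, Ccl9 and Ccr1, and those in WT were Ccl2, Ccl7, Ccl12, Ccl3, Ccl6, Ccl9 and Ccr1. The median difference was 1.15 in Hsp72Tg and 1.53 in WT, beside -0.02 over all genes in each.

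The number of genes that passed depended on Hsp72Tg MCAO 1. Without this array 8 of the 10 passed in Hsp72Tg (6.49% of all genes passed in either direction), 4 in WT (2.54%) and 9 over both genotypes (12.4%). The 8 were all but Ccl6 and Ccr2, and the 9 all but Ccr2. Without it the difference in Hsp72Tg was 3.93 for Ccl2 (SE 0.36, adjusted p = 0.000363), 4.0 for Ccl3 (SE 0.63, adjusted p = 0.00662) and 3.64 for Ccl9 (SE 0.24, adjusted p = 6.64e-05). The same fit gave 1.10 for Ccr1 (SE 0.13, adjusted p = 0.00173) and 1.16 for Ccl7 (SE 0.15, adjusted p = 0.00278).

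The Hsp72Tg MCAO arrays differed from each other far more than the WT MCAO arrays in these genes. The SD within Hsp72Tg MCAO had a median of 0.85 over the 10 genes and 0.15 over all genes, and 9 of the 10, all but Ccr2, exceeded the 95th percentile of all genes (0.49). Within WT MCAO the median SD was 0.25 for the 10 genes and 0.10 for all genes, and 4 of the 10 exceeded the 95th percentile (0.27). A test of the difference in spread was not made, since the groups hold 3 arrays each.

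**Figure D3:**
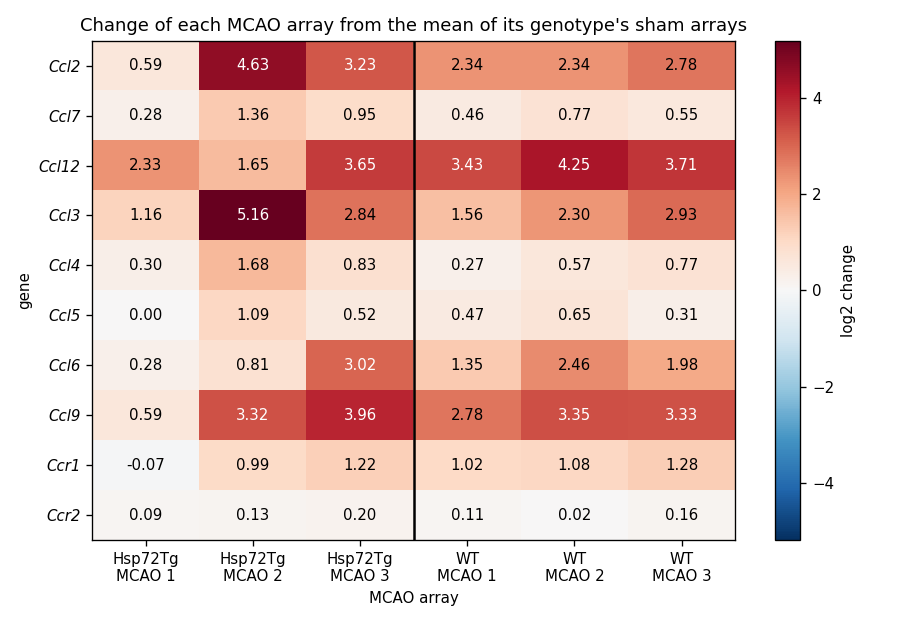
Log2 change of each MCAO array (columns, Hsp72Tg left of WT) from the mean of the 2 sham arrays of its genotype, for each gene (rows). Ccl2 and Ccl3 reach 4.63 and 5.16 in Hsp72Tg MCAO 2, the array with the smallest change of Ccl12 (1.65), and Hsp72Tg MCAO 1 has a change of 2.33 in Ccl12 and of no more than 1.16 in any other gene.

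Each Hsp72Tg MCAO array had its own profile of the 10 genes. In Hsp72Tg MCAO 1, 2 of the 10 genes, Ccl12 (5.0-fold) and Ccl3 (2.2-fold), were more than 2-fold over the mean of their sham group. In that array 0.132% of all genes were over 2-fold. The median change there was 0.29 over the 10 genes and -0.02 over all genes. In Hsp72Tg MCAO 2, Ccl3 was 35.7-fold and Ccl2 24.8-fold over the sham mean, with Ccl12 at 3.1-fold and Ccl6 at 1.8-fold. In Hsp72Tg MCAO 3, Ccl9 was 15.5-fold, Ccl12 12.5-fold and Ccl6 8.1-fold over it. In the WT MCAO arrays Ccl12 was the most changed gene in each (10.7, 19.0 and 13.1-fold) and Ccl9 came next (6.9, 10.2 and 10.1-fold), and the gene after these differed (Ccl2 in WT MCAO 1, Ccl6 in WT MCAO 2 and Ccl3 in WT MCAO 3).

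These profiles can be read against all genes. Hsp72Tg MCAO 2 was the highest MCAO array for 5 of the 10 genes (Ccl2, Ccl7, Ccl3, Ccl4 and Ccl5), and it was so for 17.8% of all genes and for 46.5% of the 187 genes at least 2-fold higher after MCAO over both genotypes. Hsp72Tg MCAO 3 was the highest for 4 (Ccl6, Ccl9, Ccr1 and Ccr2), against 18.7% of all genes and 43.9% of those 187. Hsp72Tg MCAO 1 was the lowest for 7, against 20.1% of all genes and 94.1% of the 187. Ccl12 was at its lowest in Hsp72Tg MCAO 2, as were 28.7% of all genes and 4.81% of the 187. Ccl4 was at its lowest in WT MCAO 1, as were 15.9% of all genes, and Ccr2 in WT MCAO 2, as were 12.3%. Ccl4, Ccl5, Ccl7, Ccr1 and Ccr2 are not among the 187. No test of these shares was made.

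Markers of other cell types also varied between the arrays. The 9 measured neutrophil markers averaged 5.85, 7.52 and 6.84 in Hsp72Tg MCAO and 6.09 and 6.0 in Hsp72Tg sham, against 6.53, 6.85 and 6.82 in WT MCAO and 6.42 and 5.67 in WT sham. The mean was thus highest in Hsp72Tg MCAO 2, the array with the highest Ccl2 and Ccl3. Of the 9 markers, S100a8, S100a9, Mmp8, Mmp9 and Ngp were highest in that array. Csf3r, Cxcr2, Camp and Ltf were highest in other arrays, and Csf3r was at its lowest (6.92) in Hsp72Tg MCAO 2. The 7 measured markers of activated macrophages averaged 6.81, 7.71 and 8.67 in Hsp72Tg MCAO, 6.22 to 6.26 in Hsp72Tg sham, 7.76, 8.26 and 8.21 in WT MCAO and 6.2 in both WT sham arrays. Their mean was highest in Hsp72Tg MCAO 3, which also had the highest Ccl6 and Ccl9. Cd68, Msr1, Arg1 and Lgals3 were highest in that array, while Cd14, Gpnmb and Itgax were highest in others. The 7 measured monocyte markers averaged 6.17, 6.63 and 6.9 in Hsp72Tg MCAO, 6.08 to 6.15 in Hsp72Tg sham, 6.31 to 6.94 in WT MCAO and 6.05 to 6.23 in WT sham. The 9 measured microglia markers averaged 8.32, 7.22 and 7.68 in Hsp72Tg MCAO, 8.16 to 8.47 in Hsp72Tg sham, 7.65 to 7.96 in WT MCAO and 7.85 to 8.45 in WT sham, with the lowest value in Hsp72Tg MCAO 2. Of the neutrophil, monocyte and microglia markers 0 passed in limma over both genotypes and 3 of the 7 macrophage markers rose. The 5 endothelial markers averaged 7.78 to 8.41 in Hsp72Tg MCAO, 7.42 to 7.64 in Hsp72Tg sham, 7.74 to 8.22 in WT MCAO and 7.26 to 7.41 in WT sham, so that all MCAO arrays were higher than all sham arrays, and 2 of the 5 rose (median difference 0.65). The 7 astrocyte markers averaged 11.77 to 11.92 in Hsp72Tg MCAO, 11.56 to 11.57 in Hsp72Tg sham, 11.82 to 11.87 in WT MCAO and 11.56 to 11.65 in WT sham, and 1 of the 7 rose (median difference 0.09). The part of these cell types in the chemokine values was not tested.

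Hsp72Tg and WT mice were then compared directly, the question named in the title of the series for astrocytes. After MCAO 0 of the 10 genes differed in limma, and 0 of all genes did (0%, smallest adjusted p = 0.838). At an unadjusted p under 0.05 there was 1 of the 10, against 2.68% of all genes. That gene was Ccl12, at 8.08 ± 1.01 in Hsp72Tg MCAO and 9.08 ± 0.42 in WT MCAO (SD, n = 3 each), a difference of -1.0 (SE 0.42, 95% interval -1.94 to -0.07, unadjusted p = 0.0385, limma adjusted p = 1). The difference of Ccl12 ran from -1.56 without Hsp72Tg MCAO 3 to -0.56 without Hsp72Tg MCAO 2. Its arrays overlapped, since Hsp72Tg MCAO 3 at 9.18 exceeded WT MCAO 1 and 3.

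**Figure D4:**
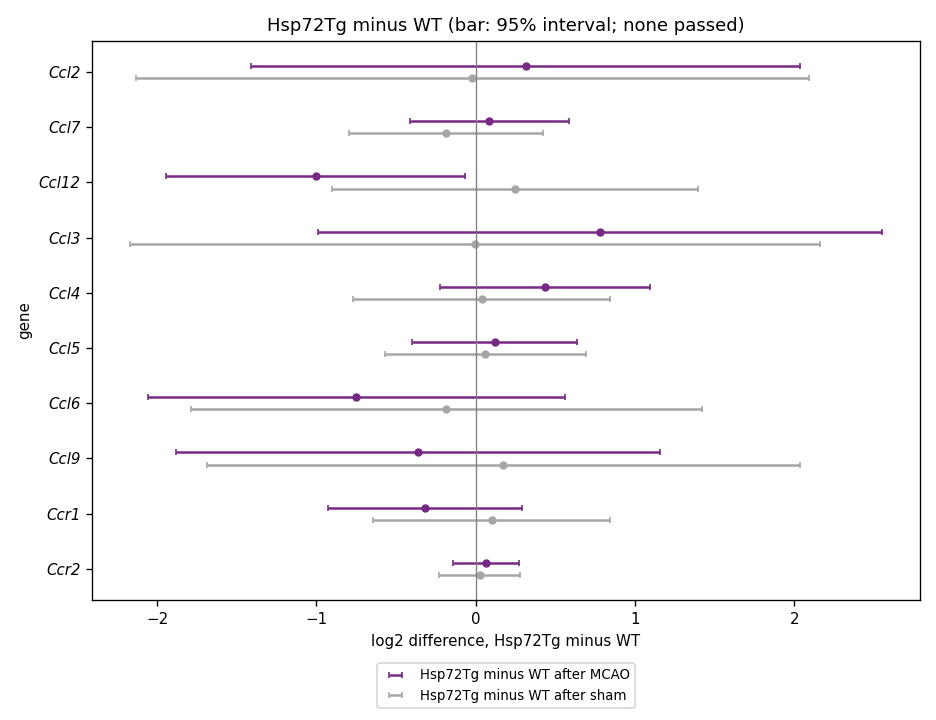
Log2 difference of Hsp72Tg minus WT (horizontal axis) for each gene after MCAO and after sham surgery, with the 95% interval of the limma fit as a bar. All intervals but that of Ccl12 after MCAO (-1.94 to -0.07) include 0, and those of Ccl2, Ccl3 and Ccl9 are the widest after MCAO.

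For the other genes the intervals after MCAO included both signs and were widest for Ccl3, Ccl2 and Ccl9. Ccl3 was at 8.34 ± 2.01 in Hsp72Tg MCAO and 7.56 ± 0.68 in WT MCAO, a difference of 0.78 (95% interval -0.99 to 2.55), and was -0.27 without Hsp72Tg MCAO 2. Ccl2 was at 9.2 ± 2.05 in Hsp72Tg MCAO and 8.88 ± 0.25 in WT MCAO, a difference of 0.31 (-1.41 to 2.04) that was -0.59 without Hsp72Tg MCAO 2 and 1.43 without Hsp72Tg MCAO 1. Ccl9 was at 8.73 ± 1.79 in Hsp72Tg MCAO and 9.09 ± 0.32 in WT MCAO, a difference of -0.36 (-1.88 to 1.16) that was 0.65 without Hsp72Tg MCAO 1. The direction of these 3 differences thus hung on a single array. For Ccl6 the difference was -0.75 (95% interval -2.06 to 0.56), and it ran from -1.57 without Hsp72Tg MCAO 3 to -0.20 without Hsp72Tg MCAO 1. The other probe set of Ccl6 gave 0.01. For Ccl4 it was 0.44 (95% interval -0.22 to 1.09), and it ran from 0.06 without Hsp72Tg MCAO 2 to 0.75 without Hsp72Tg MCAO 1. For Ccr1 it was -0.32 (95% interval -0.93 to 0.29). Ccl5 differed by 0.12 (95% interval -0.40 to 0.63), Ccl7 by 0.09 (-0.41 to 0.58) and Ccr2 by 0.07 (-0.14 to 0.27).

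After sham surgery the genotypes differed by -0.19 (Ccl7) to 0.25 (Ccl12), and 0 of the 10 genes and 0% of all genes passed in limma (0 of the 10 at an unadjusted p under 0.05, against 1.56% of all genes). Ccl12 read 5.76 and 5.32 in Hsp72Tg sham and 5.29 and 5.3 in WT sham. For Ccl7 the Hsp72Tg sham arrays both read 5.25, below 5.47 and 5.41 in WT sham, a difference of -0.19 (SE 0.27). The change after MCAO was also compared between the genotypes: 0 of the 10 genes passed in limma, 0 had an unadjusted p under 0.05 (1.75% of all genes), and the share of all genes called was 0%. For Ccl12 this difference of the changes was -1.25 (95% interval -2.74 to 0.23, adjusted p = 1) and for Ccl3 0.79 (-2.01 to 3.58).

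Of 10 measured members outside the list, 0 passed in limma over both genotypes (1 had an unadjusted p under 0.05, where 19.1% of all genes had one in either direction), with a median difference of 0.07 beside -0.03 over all genes. Ccl11, eotaxin, which lies between Ccl7 and Ccl12 in the cluster on chromosome 11, read 4.57 to 6.73 in the MCAO arrays and 4.74 to 5.19 in the sham arrays, a difference of 0.96 (SE 0.35, adjusted p = 0.18). Ccl8, the next gene after Ccl12, read 5.27 to 5.53 in the MCAO arrays and 5.35 to 5.52 in the sham arrays (difference -0.03, SE 0.08), beside a neighbour that rose. Ccl17, a ligand of Ccr4, had a difference of 0.33 (SE 0.17, adjusted p = 0.329) and Ccl28, a mucosal chemokine, of 0.18 (SE 0.16, adjusted p = 0.572). Ccl19, Ccl21a and Ccl26 were not analysed here.

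Of 11 measured CC receptors and chemokine-binding proteins 0 passed in limma over both genotypes (0 at an unadjusted p under 0.05, against the same 19.1%), with a median of 0.0 and a range from -0.17 to 0.27. The largest absolute values were those of Ccrl2, an atypical receptor of activated leukocytes (0.27, SE 0.17), Ackr1, the atypical receptor on venules and red cells (0.185, SE 0.17), and Ccr6, the receptor for Ccl20 (-0.17, SE 0.10). Of 18 measured genes of signalling below the receptors, 0 passed in limma over both genotypes, with a median of 0.16 (7 had an unadjusted p under 0.05, against 19.1% of all genes). Here Gnb1, a G protein beta subunit, had a difference of 0.79 (SE 0.33, adjusted p = 0.23), Pik3r5, a regulator of the PI3-kinase activated by G proteins, of 0.63 (SE 0.20, adjusted p = 0.133) and Rgs1, which limits chemokine receptor signals, of 0.58 (SE 0.23, adjusted p = 0.214). MCAO and sham arrays overlapped in each of these genes. For Gnb1 the sham arrays, at 10.74 to 12.79, reached beyond the MCAO arrays, at 11.83 to 12.74, at both ends. In these 3 lists 0 genes passed within a genotype or between genotypes either.

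The genes whose values ran most like each of the 10 were found by the root mean square difference over the 10 arrays, after subtracting each gene's mean over the 4 sham arrays. Ccl12 was nearest to Tgm1, a transglutaminase (0.56), and Serpina3n, a protease inhibitor (0.63), and had no close match. Ccl9 was nearest to Tubb6, a beta-tubulin (0.23), and Timp1, a metalloproteinase inhibitor (0.35). Ccl2 was nearest to Rnf125, a ubiquitin ligase (0.31), and Ctla2a, a cathepsin inhibitor (0.32), while Ccl3 was nearest to Prg4 (0.45) and to Icam1, an adhesion molecule for leukocytes (0.47). For Ccl3 another of the 10 genes, Ccl2, was nearer still (0.40). Icam1 shows the shared pattern, at 5.71, 9.53 and 8.24 in Hsp72Tg MCAO, 5.56 and 5.43 in Hsp72Tg sham, 7.32, 7.28 and 7.82 in WT MCAO and 5.16 and 5.29 in WT sham.

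Ccl6 was nearest to Plin2, a lipid droplet protein (0.37), and Procr, the protein C receptor (0.39). Ccl4 was nearest to Map3k8, a kinase of inflammatory signalling (0.11), and Il1r2, the interleukin-1 decoy receptor (0.13), and Ccr1 to Elovl1 (0.12) and Rai14 (0.13). Ccl7 was nearest to Ccdc86 and Arap3 (0.15 each), Ccl5 to Arf6 and Ccnl1 (0.12 each), and Ccr2 to Syce1 and Krtap5-5 (0.05 each). A small value is easily reached by genes with small changes, such as Ccr2 and Ccl5. Among the 10 genes themselves Ccl7 and Ccl5 (0.21) and Ccl7 and Ccl4 (0.23) were closest, and Ccl2 and Ccl3 (0.40) were the closest pair among the genes more than 2-fold higher after MCAO over both genotypes. The measure was taken over 16321 other genes, leaving out those with only a clone or model name, and describes these arrays only.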

How the data were processed

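Hemisphere RNA of 10 samples was hybridised to Affymetrix arrays. The deposited table gives log2 expression values. Per the submitters' processing notes, the authors obtained these log2 values by RMA; no version or setting of RMA was stated there. Detection calls were not used here, and the number of arrays limits the precision. The deposited log2 values lay between 3.49 and 14.73, and the array medians between 6.67 and 6.73.

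Of 45101 probe sets, 64 controls were left out, the platform annotation gave 1 symbol for 34945, more than 1 for 932 and no entry for 9160. Symbols were checked through Entrez identifiers against RefSeq of GRCm38.p6 (34741 matched, 0 changed). Each of 18193 genes was read on its probe set with the highest mean. The 10 genes described here had 16 probe sets.

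Tests used limma 3.58.1 in R 4.3.3 (lmFit, contrasts.fit and eBayes, a mean per group over all 10 arrays, 6 residual degrees of freedom, prior 3.72), with Benjamini-Hochberg adjustment over all genes, two-sided, at 0.05. The analysis was tested on simulated data. The groups come from the sample titles. Replicate numbers were not treated as pairs in the reported fit. Same-numbered arrays had r of -0.16 to 0.25 in their deviations from the group means, and 2 of 13 pairs exceeded 0.1. Differently numbered arrays had r of -0.23 to 0.20. In a group of 2 arrays the deviations mirror each other, so these values cannot decide whether the samples were paired. Alternatives were a replicate block, only the arrays compared, trend and robust options, array weights, quantile normalization, median centring, other probe sets, a filter on dim genes, 0.01 as threshold, a minimum of 2-fold, and leaving out arrays. Over both genotypes the arrays compared are all 10, so that alternative equals the reported fit. The 0.01 threshold and the 2-fold minimum are read on the reported fit too.

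All 10 genes were named, with the 3 largest changes of each list of further CC chemokines, receptors and signalling genes and the 2 nearest genes by pattern. The genes, lists and the doubted arrays were chosen with earlier results of these data known. Marker lists are given as means of log2 values.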

Additional observations from a re-analysis of the deposited data

How the results depend on the processing

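The count of genes passing over both genotypes was 2 in the reported fit. It ran from 1 to 9 when 1 MCAO array was left out, where 0.0824% to 12.4% of all genes passed in either direction. The count in WT was 1 and ran from 0 to 4 (0% to 2.54% of all genes). That in Hsp72Tg was 0 and ran from 0 to 8 (0% to 6.49%). With the replicate number as a replicate block, 0 passed in WT (0% of all genes) and 1 over both genotypes (0.104%). With trend and robust options 0 passed in WT (0.0385%) and 1 over both genotypes (1.52%). At an adjusted p under 0.01, 0 passed in WT (0.0055%) and 1 over both genotypes (0.0824%). With only the arrays of the groups compared 7 passed in WT (5.25% of all genes passed in either direction, against 0.055% in the reported fit). With array weights 7 passed in WT (7.46% of all genes) and 8 over both genotypes (6.13%, against 1.46% in the reported fit). With the mean over the probe sets of a gene 1 passed over both genotypes (1.04% of all genes). Without Hsp72Tg MCAO 1 and WT sham 1 together, 7 passed in Hsp72Tg (4.29% of all genes), 4 in WT (0.813%) and 9 over both genotypes (6.47%). The counts between genotypes were 0 in every alternative run. Over both genotypes the share of all genes passing was 0.104% with the replicate block and 12.4% without Hsp72Tg MCAO 1. The cause of these changes was not tested, except that a stricter threshold passes fewer genes by construction.

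Differences between genotypes changed sign in several alternatives, none of them past the threshold. With quantile normalization Ccl3 after sham surgery was 0.0002. With the mean over probe sets Ccr2 after MCAO was -0.0549, Ccl9 after sham surgery -0.0982, Ccr1 after sham surgery -0.0364 and the difference of the changes of Ccr2 -0.0781. Without the 2 arrays together Ccl9 after MCAO was 0.653, Ccr1 after MCAO 0.0754, Ccl2 after sham surgery 0.156, and the difference of the changes 0.472 for Ccl9 and -0.0747 for Ccr2. On other probe sets the change of Ccr2 in Hsp72Tg was -0.016. There Hsp72Tg minus WT after MCAO was 0.0117 for Ccl6, 0.0004 for Ccr1 and -0.236 and -0.0799 for Ccr2, and after sham surgery 0.110 for Ccl6, -0.370 for Ccl9, -0.174 for Ccr1 and -0.0552 for Ccr2. The difference of the changes was 0.174 for Ccr1 and -0.289 and -0.149 for Ccr2.

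When 1 array was left out, Hsp72Tg minus WT after MCAO ran from -0.593 to 1.43 for Ccl2, -0.272 to 1.73 for Ccl3, -0.161 to 0.388 for Ccl5, -0.163 to 0.378 for Ccl7, -1.03 to 0.653 for Ccl9 and -0.569 to 0.0754 for Ccr1. After sham surgery it ran from -0.197 to 0.156 for Ccl2, -0.164 to 0.158 for Ccl3, -0.142 to 0.219 for Ccl4, -0.0558 to 0.178 for Ccl5 and -0.114 to 0.164 for Ccr2. The difference of the changes ran from -0.573 to 1.45 for Ccl2, -0.269 to 1.73 for Ccl3, -0.222 to 0.327 for Ccl5, -1.21 to 0.479 for Ccl9 and -0.0992 to 0.179 for Ccr2. The change of Ccr2 in WT ran from -0.0386 to 0.239. Of all values of single genes in the alternatives 1165 kept their direction and side of the threshold, 56 newly passed, 23 no longer passed and 46 changed sign.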
